A study of Mus musculus with 2 samples.

Results

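Complement components and regulators were described in single cells of the superficial cervical lymphatic vessels of aged and adult mice. The set holds 9 genes, chosen by name: C3, C4b, C1s1, C1ra, C2, C7, Serping1, Masp1 and Cd55. All 9 were found among the 23521 genes of both tables. The mice were of the FVB/N strain, the vessels were those that feed the submandibular lymph nodes, and cells passed a flow cytometric sort before the 3′ ends of their transcripts were captured in droplets. The aged library pooled 6 mice of 93 weeks, and the adult library pooled 6 mice of 12 weeks. The mice of both ages carried Prox1-GFP, green fluorescent protein driven by the promoter of Prox1, a transcription factor of lymphatic endothelium. With 1 library per age no test between ages was possible. Each value belongs to its own library, and the 95% intervals printed beside values hold counting error alone.

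Complement is a cascade of plasma and tissue proteins that marks surfaces for clearance, draws leukocytes and can perforate membranes. In the classical route the proteases C1r and C1s cleave C4 and C2, and in the lectin route serine proteases of the MASP family do so. The C4 and C2 fragments form an enzyme that cleaves C3, and the late components, among them C7, then build the membrane attack complex. Serping1 encodes the C1 inhibitor, which blocks C1r, C1s and the MASPs, and Cd55 encodes decay-accelerating factor, a membrane protein that takes apart the C3-cleaving enzyme. The liver makes most plasma complement, and stromal cells are known as a local source.

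The aged table held 13969 cells, of which 6977 had a barcode that was also in the adult table. These were left out, which left 6992 aged cells with 83509101 UMIs (unique molecular identifiers, 1 for each transcript end counted) against 7308 adult cells with 90875406 UMIs. Clusters built without complement genes were named from fixed markers. Fibroblast-like cells numbered 6227 in the aged and 6087 in the adult library, blood endothelial-like cells 430 and 660, smooth muscle-like cells 242 and 319, and lymphatic endothelial-like cells 83 and 242. The largest of the 3 blood endothelial-like clusters, led by Olr1 and Vwf, had an Flt1 UMI in 97.0% of its 300 aged and 98.3% of its 401 adult cells, and a Prox1 UMI in 95.3% and 85.3%. Its Prox1 level was 2800 and 3452 counts per 1000000 UMIs of the cluster (CPM), between the lymphatic clusters (5046 CPM or more in each library) and the other blood endothelial-like clusters (181 CPM or less). Median UMIs per cell were 12207 in aged and 13126 in adult fibroblast-like cells, 6298.5 and 7495.5 in blood endothelial-like cells, 5563.5 and 6518 in smooth muscle-like cells, and 5182 and 5718.5 in lymphatic endothelial-like cells. Of the 18 fibroblast-like clusters, 12 held 50 or more cells in each library. The largest of the others, led by Gm56730, held 1200 aged and 39 adult cells. Cells with a Y-linked UMI and none of Xist were called male, and the reverse female. The male share of the called fibroblast-like cells was 58.6% in the aged and 44.6% in the adult library.

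Fibroblast-like cells held the highest level of all 9 members in the adult library and of 8 in the aged library, where the exception was Masp1. Levels are UMIs of the gene per 1000000 UMIs of the class (CPM), and since a UMI stands for 1 transcript end they need no correction for length. Serping1, the C1 inhibitor, stood at 2621 CPM in aged and 2658 CPM in adult fibroblast-like cells. C3, the central component, stood at 2601 and 2892 CPM there. The other members lay between 29.4 CPM (Masp1) and 316 CPM (Cd55) in the aged library and between 43.1 CPM (Masp1) and 608 CPM (C4b) in the adult library. At an equal depth of 7000 UMIs per cell, the median fibroblast-like cell had a UMI of 5 of the 9 members in the aged and 6 in the adult library. The medians were 2 and 3 in smooth muscle-like cells, 1 and 1 in blood endothelial-like cells, and 2 and 2 in the lymphatic class. They rest on the deeper cells alone, 66 aged and 136 adult, 166 and 378, and 19 and 71 cells in these classes. In aged smooth muscle-like cells a C4b UMI was in 33.3% of the thinned cells and 18.2% of all cells unthinned. The medians may thus not describe the whole class. Masp1 stood at 29.4 and 43.1 CPM in fibroblast-like cells and at 30.4 and 39.2 CPM in blood endothelial-like cells. The intervals of these classes overlapped in each library.

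**Figure D1:**
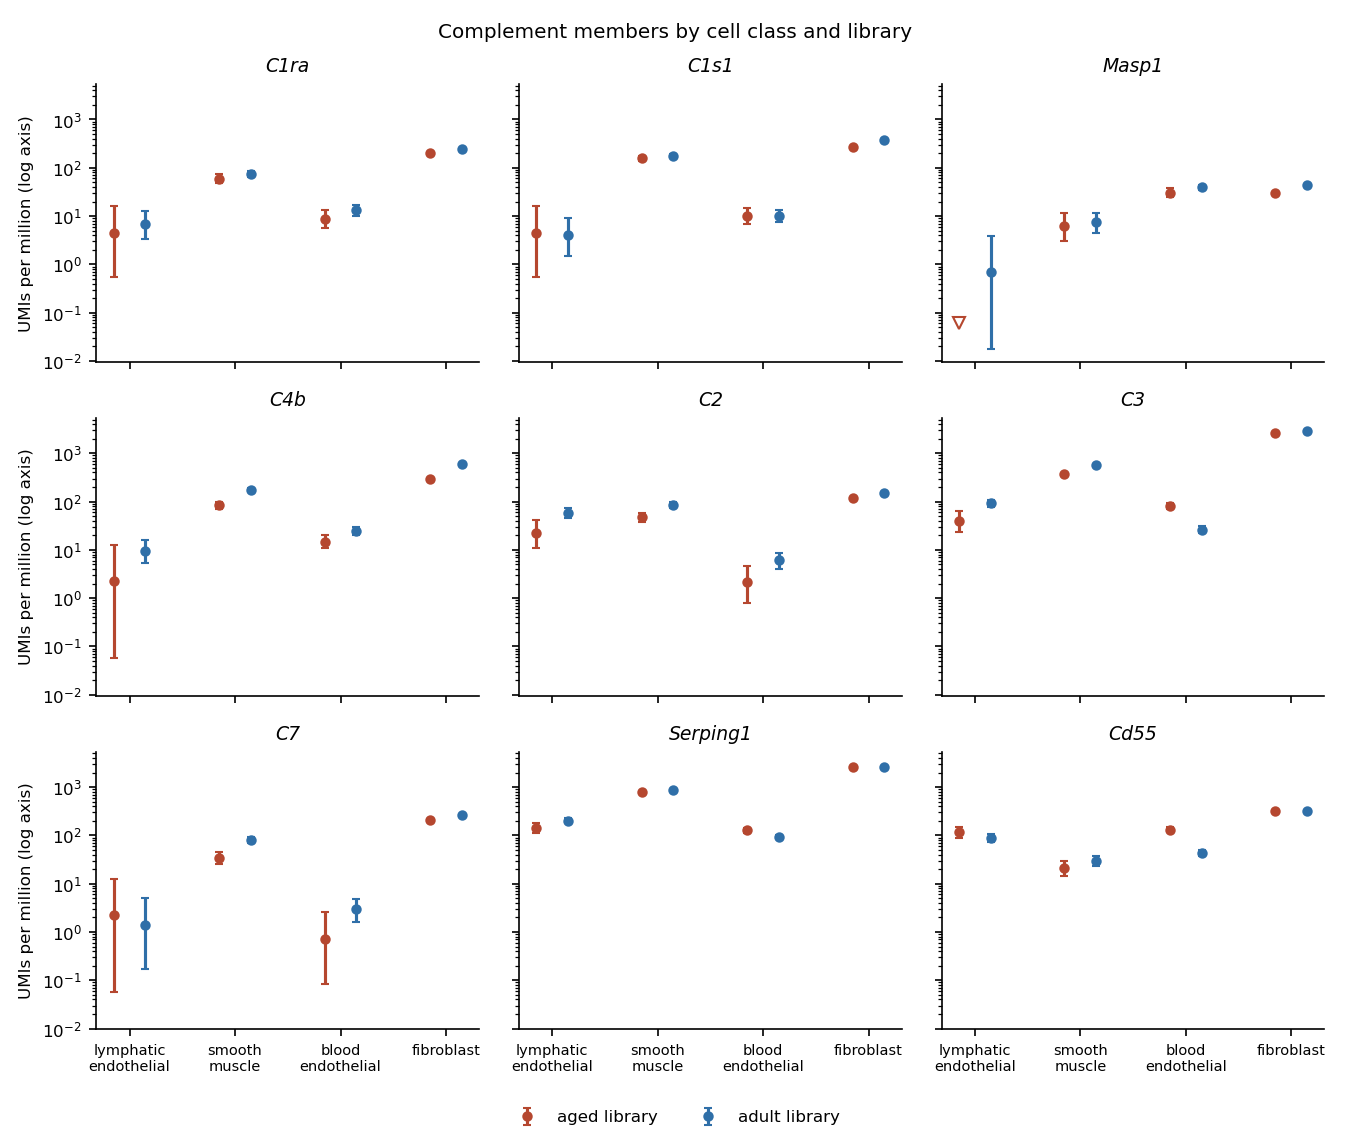
Level of each member in CPM of the class (log axis) in 4 cell classes, aged library left of the adult library, with exact 95% Poisson bars that cover counting error only. The open triangle marks 0 UMIs of Masp1 in aged lymphatic endothelial-like cells, and C3 and Serping1 in fibroblast-like cells stand highest, at 2601 to 2892 CPM.

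The sequence before the transcription start is shown for the 5 members that the RefSeq promoter table (GRCm38.p6) holds. C1ra and C1s1 are shown because their levels moved together over fibroblast-like clusters, C3 as an abundant member, and C7 and Cd55 because their levels ran opposite over those clusters. Each line gives the 250 bases before the start, 5′ to 3′ on the strand of the gene. For C1s1 the table has 2 starts and the first listed is shown. Capitals mark matches, on either strand, to the TATA box (TATAAA), a core of the interferon-stimulated response element (GAAANNGAAA), the gamma-activated site (TTCNNNGAA), a kappa B pattern (GGGNNNNNCC) or a C/EBP pattern (TTGCGNAA).
C1ra (chr6:124512371-124512620, plus strand): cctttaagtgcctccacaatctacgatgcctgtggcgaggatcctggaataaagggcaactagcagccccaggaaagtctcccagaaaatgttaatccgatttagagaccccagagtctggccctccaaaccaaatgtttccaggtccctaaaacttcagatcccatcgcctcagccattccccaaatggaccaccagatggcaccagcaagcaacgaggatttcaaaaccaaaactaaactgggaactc
C1s1 (chr6:124542360-124542609, minus strand): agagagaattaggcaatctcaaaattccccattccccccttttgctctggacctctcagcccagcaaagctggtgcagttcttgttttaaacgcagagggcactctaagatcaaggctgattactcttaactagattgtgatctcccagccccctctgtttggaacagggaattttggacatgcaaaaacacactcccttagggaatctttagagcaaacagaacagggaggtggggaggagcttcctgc
C3 (chr17:57228137-57228386, minus strand): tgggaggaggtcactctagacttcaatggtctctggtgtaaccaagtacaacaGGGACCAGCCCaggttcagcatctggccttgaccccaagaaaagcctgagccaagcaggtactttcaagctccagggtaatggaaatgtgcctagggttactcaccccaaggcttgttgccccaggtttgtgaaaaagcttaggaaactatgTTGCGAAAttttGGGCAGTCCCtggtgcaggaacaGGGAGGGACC
C7 (chr15:5063774-5064023, minus strand): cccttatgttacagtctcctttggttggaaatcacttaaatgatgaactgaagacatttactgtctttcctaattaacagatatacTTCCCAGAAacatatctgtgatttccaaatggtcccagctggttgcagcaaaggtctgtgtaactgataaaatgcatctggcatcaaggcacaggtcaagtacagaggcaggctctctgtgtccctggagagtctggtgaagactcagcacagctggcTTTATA
Cd55 (chr1:130462745-130462994, minus strand): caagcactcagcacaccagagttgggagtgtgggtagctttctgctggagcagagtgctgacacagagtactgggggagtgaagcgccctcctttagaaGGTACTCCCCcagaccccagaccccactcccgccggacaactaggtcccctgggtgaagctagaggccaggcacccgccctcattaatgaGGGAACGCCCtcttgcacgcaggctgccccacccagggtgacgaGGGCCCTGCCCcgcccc
C3 had 1 match to the C/EBP pattern, 45 to 38 bases before the start, a pattern held by 0.67% of 32841 promoter windows of this length. C7 had a gamma-activated site pattern, 164 to 156 bases before the start, held by 7.02% of the windows, and a reversed TATA box pattern at 6 to 1 bases, held by 12.4%. The other capitals in C3 and Cd55 are kappa B matches, a pattern in 45.8% of the windows, and some of these overlap their own match on the opposite strand. The windows of C1ra and C1s1 had no match, and the interferon element core, in 2.98% of all windows, was in none of the 5. These windows held 5 CpG pairs in C1ra, 1 in C1s1, 1 in C3, 0 in C7 and 8 in Cd55.

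In aged against adult cells, C4b was lower in the 3 classes where it was measured, though in smooth muscle-like and blood endothelial-like cells it was not called in female cells alone, and the other members differed between classes. A member was measured in a class with 50 or more UMIs over both libraries, and called higher or lower past 1.5-fold with an interval that excluded 0. In fibroblast-like cells 1 of 9 members, C4b, was lower and 0 were higher, beside 5.18% of all measured genes lower and 2.01% higher. In smooth muscle-like cells 4 of 8 members (C4b, C2, C3 and C7) were lower and 0 higher, beside 9.66% and 3.64% of all measured genes. In blood endothelial-like cells 1 of 7 (C4b) was lower and 2 (C3 and Cd55) were higher, beside 6.05% and 4.92%. In lymphatic endothelial-like cells 2 of 4 (C3 and C2) were lower and 0 higher, beside 5.48% and 6.45%. Past 2-fold, the lower members were C4b in fibroblast-like cells, C4b and C7 in smooth muscle-like cells, 0 in blood endothelial-like cells, and C3 and C2 in lymphatic endothelial-like cells, beside 1.33%, 3.79%, 2.06% and 2.85% of all measured genes in the same classes. Higher past 2-fold were C3 and Cd55 in blood endothelial-like cells and 0 in the other classes, beside 0.639% in fibroblast-like, 0.75% in smooth muscle-like, 1.4% in blood and 1.92% in lymphatic endothelial-like cells. The median log2 ratio of the measured members was -0.34 in fibroblast-like cells, -0.53 in smooth muscle-like cells, 0.01 in blood endothelial-like cells and -0.83 in lymphatic endothelial-like cells. Over all measured genes it was -0.08, -0.06, 0.01 and 0.03 in the same classes.

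**Figure D2:**
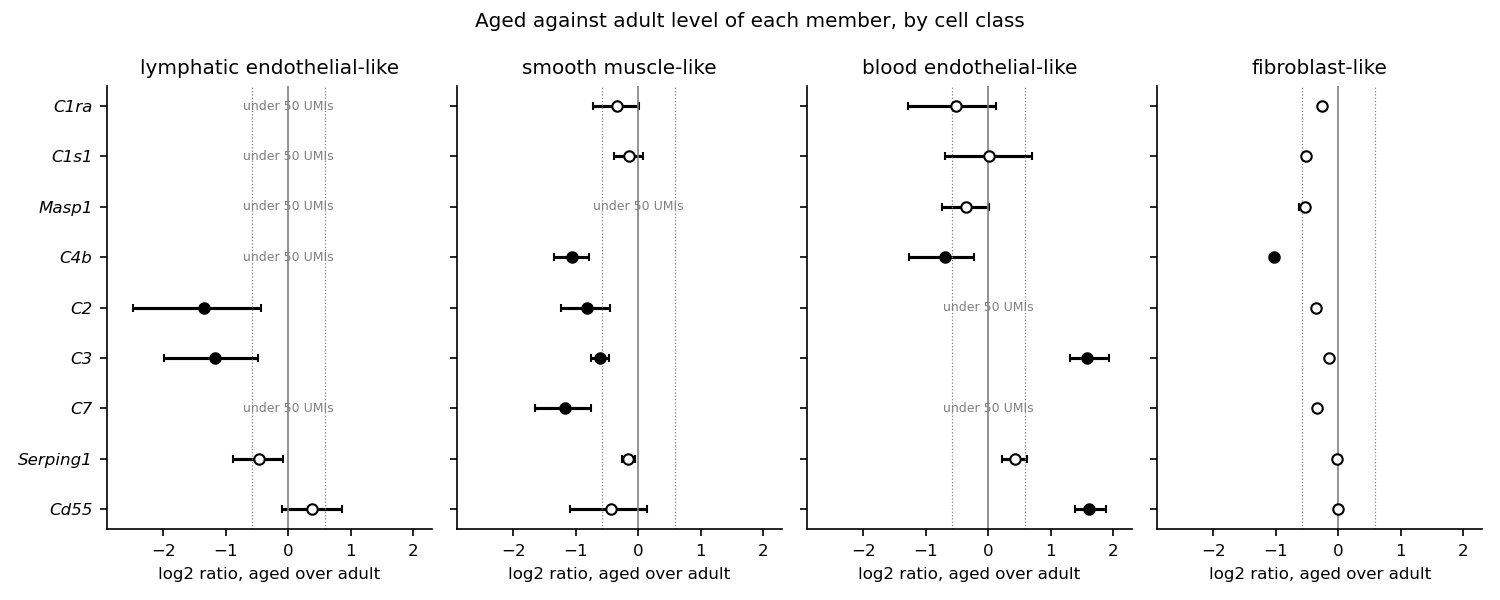
Log2 ratio of the aged over the adult level of each member (after adding 1 CPM to each) in 4 cell classes, with exact 95% counting intervals; filled points are past 1.5-fold (dotted lines) with an interval that excludes 0. C4b is filled in 3 classes, C3 lies left of 0 in 3 classes and right of it in blood endothelial-like cells, and Cd55 is filled right of 0 in blood endothelial-like cells.

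C1ra and C1s1 encode the proteases of the C1 complex in the mouse. C1s1 stood at 267 CPM in aged and 382 CPM in adult fibroblast-like cells, a log2 ratio of -0.51 (-0.54 to -0.49), and C1ra at 198 and 239 CPM, a ratio of -0.27 (-0.30 to -0.24). Both missed the 1.5-fold limit over the class. The 12 fibroblast-like clusters with 50 or more cells in each library were compared one by one. C1s1 was lower in 5 of the 12 and C1ra in 1, and both ratios lay below 0 in 12 of 12. Among the 6234 genes measured in all 12 clusters, 4.04% had a ratio below 0 in each. Shares of genes lower past the limit were computed for 11 or more and for all 12 clusters alone. Other cluster counts of members, such as 5 of 12, have no such background. The largest difference of both was in the cluster led by Myoc, Ccn5 and Cited1, where C1s1 stood at 189 against 467 CPM and C1ra at 127 against 263 CPM. Across the 12 clusters the highest level was 2.25 times the lowest for C1s1 and 2.56 times for C1ra in the aged library (3.04 and 2.57 times in the adult library), while for C7 it was 112.9 times in the aged and 100.3 times in the adult library. At equal depth C1s1 had a UMI in 81.1% of aged and 89.6% of adult fibroblast-like cells, and in 3.01% and 6.61% of blood endothelial-like cells. The unthinned fibroblast-like shares were 89.4% and 93.9%.

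Smooth muscle-like cells were the other class with C1s1 and C1ra. C1s1 stood at 158 CPM in the aged and 176 CPM in the adult library, and 52.9% and 54.2% of the cells had a UMI. C1ra stood at 59.4 and 76.0 CPM. Neither passed the limit between ages there. In lymphatic endothelial-like cells C1s1 had 2 aged and 6 adult UMIs, and C1ra had 2 and 10, too few to compare. C1ra and C1s1 have close copies, C1rb and C1s2, and reads of such copies can be split by the counting, so the levels of each are uncertain. C1rb stood at 176 and 220 CPM and C1s2 at 123 and 177 CPM in fibroblast-like cells, each lower in the aged library by less than the limit.

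Masp1, a protease of the lectin route, was low and unevenly spread. It stood at 29.4 CPM in aged and 43.1 CPM in adult fibroblast-like cells, a log2 ratio of -0.54 (-0.63 to -0.48). In the cluster led by Trhde, Agt and Bmper it stood at 69.9 against 163 CPM, and in the cluster led by Rxfp1, Greb1 and Fbln7 at 84.1 against 105 CPM. In the cluster led by Gabra2, Tmeff1 and Aldh1a3 it had 0 aged and 4 adult UMIs. It was measured in 10 of the 12 clusters. Over all 12, with no limit on UMIs, it was lower in 7 and below 0 in 12. Of the genes measured in all 12, which leaves out Masp1, 4.04% were below 0 in each. In blood endothelial-like cells 75 of the 86 aged and 190 of the 201 adult Masp1 UMIs lay in the cluster led by Olr1 and Vwf, which also carried Prox1. There Masp1 stood at 37.9 against 58.8 CPM, a ratio of -0.62 (-1.04 to -0.24). In lymphatic endothelial-like cells Masp1 had 0 of 448878 aged UMIs, which allows up to 6.68 CPM by a floor of 3 counts, and 1 adult UMI.

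C4b, the mouse form of component C4 that the classical and lectin proteases cleave, was the member lower in the most clusters. It stood at 296 CPM (292 to 299.7) in aged and 608 CPM (603 to 613) in adult fibroblast-like cells, a log2 ratio of -1.04 (-1.06 to -1.02). It was below 0 in 12 of the 12 clusters and lower past the limit in 11, beside 0.225% of the genes measured in all 12, which is 14 of 6234, and beside 0.0642% lower in all 12. The exception was the cluster led by Trhde, Agt and Bmper, at 674 against 986 CPM, a ratio of -0.55. The largest difference was in the cluster led by Rxfp1, Greb1 and Fbln7, at 139 against 634 CPM, a ratio of -2.18, and the median over clusters was -1.40. The other genes lower in 11 or 12 of the clusters were B2m, Socs1, Psmb9, Iigp1, Csmd1, Pltp, Dpyd, Dact1, Rtn1, Ctla2a, Galnt15, Plcxd3 and 1 unnamed gene, and these names were read off after the values were seen. B2m and Psmb9 act in class I antigen presentation, Iigp1 is an interferon-inducible GTPase, and Csmd1 is a complement inhibitor of the fixed pathway list. At equal depth a C4b UMI was found in 53.9% of aged and 78.5% of adult fibroblast-like cells, and in 7.23% and 10.3% of blood endothelial-like cells. The unthinned fibroblast-like shares were 60.9% and 82.0%. C4b in blood endothelial-like cells stood at 14.8 CPM in the aged and 24.7 CPM in the adult library, a ratio of -0.70 (-1.28 to -0.22). There it was 7.57 against 23.5 CPM in the Olr1 cluster and 59.8 against 30.5 CPM in the Gja5 cluster, and with clusters weighted equally the ratio was 0.0897. Fibroblast markers in the Gja5 cluster stood at a median of 7.67% of their fibroblast-like level in the aged and 2.23% in the adult library, and their part in its values was not tested. In female blood endothelial-like cells C4b had 33 aged and 70 adult UMIs, a ratio of -0.07 (-0.72 to 0.54), and in male cells 1 and 45 UMIs, under the 50 required. C4a, the other C4 gene of the mouse, was nearly absent, at 0.8 and 1.9 CPM, and reads shared with it are uncertain.

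**Figure D3:**
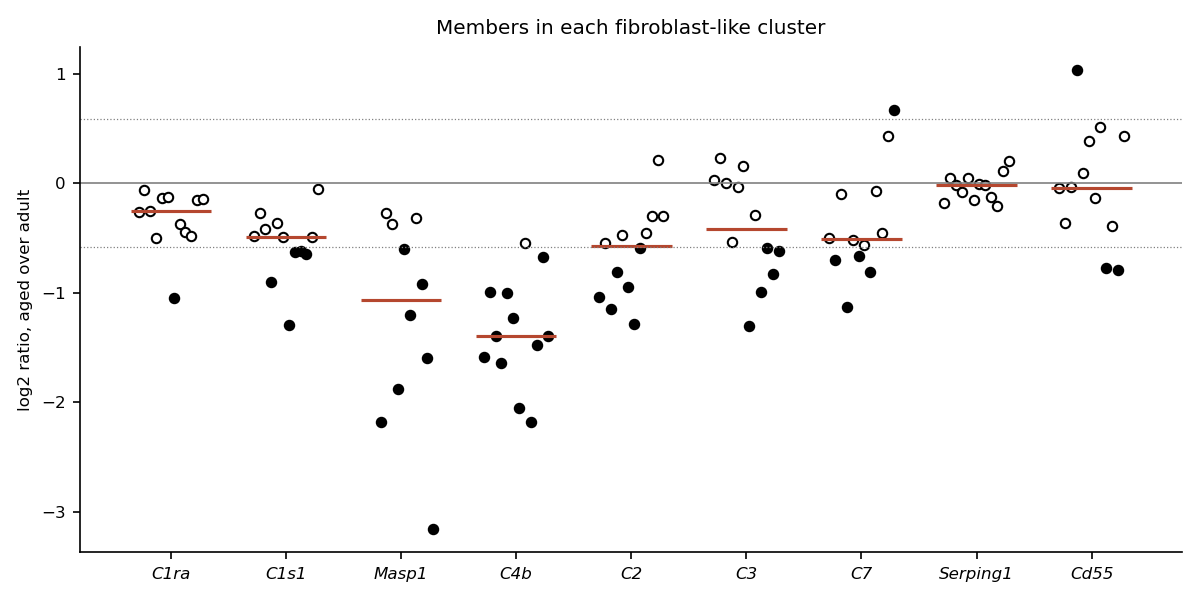
Log2 ratio of the aged over the adult level of each member in each of the 12 fibroblast-like clusters with 50 or more cells per library; filled points are past 1.5-fold (dotted lines) with a counting interval that excludes 0, red bars are medians of the clusters shown, and clusters with under 50 UMIs of a member are left out. C4b is filled in 11 of 12 clusters and Serping1 in 0 of 12.

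C4b followed the same direction in both sexes in fibroblast-like cells. It stood at 325 against 626 CPM in male cells, a log2 ratio of -0.94, and at 236 against 580 CPM in female cells, a ratio of -1.29. It was lower in 8 of 8 clusters with 50 or more male cells in each library and in 8 of 9 with 50 or more female cells. The share of all genes was not computed for these counts by sex. A list of 17 interferon-inducible genes, fixed beside the members, was also lower in the aged library. Its summed level was 1178 CPM in aged and 2162 CPM in adult fibroblast-like cells, 833 and 2379 CPM in smooth muscle-like cells, 1005 and 1891 CPM in blood endothelial-like cells, and 677 and 1494 CPM in lymphatic endothelial-like cells. All 17 genes had UMIs in both libraries of each class, with the exception of Cxcl10 at 0 in aged lymphatic endothelial-like cells. In 1 cluster, led by Miat, Tmem26 and Sv2c, the list stood at 996 against 1083 CPM and C4b at 92.6 against 291 CPM. The level of the list in the other clusters is not given here, so this cluster may not be typical. The part of the interferon-inducible genes in the C4b result was not tested.

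C2, which forms the C3-cleaving enzyme with C4, was unevenly spread over fibroblast-like cells. It stood at 119 CPM in the aged and 153 CPM in the adult class, a log2 ratio of -0.36 (-0.40 to -0.32). The cluster led by Cpz, Timp1 and Acp5 held the most, 385 against 475 CPM, and that led by Gabra2, Tmeff1 and Aldh1a3 the least, 30.6 against 64.0 CPM. C2 was lower in 6 of the 12 clusters, a count with no share of all genes computed. Among them was the Gabra2 cluster with a ratio of -1.04, while the Cpz cluster had -0.30. The 4 clusters with the most C2 in the aged library, led by Cpz, Ifit1, Acsbg1 and Rxfp1, had ratios between -0.45 and 0.21, within the limit. In lymphatic endothelial-like cells C2 stood at 22.3 CPM in the aged and 58.0 CPM in the adult library, from 10 and 84 UMIs, a ratio of -1.34 (-2.49 to -0.43). By cluster, C2 had 0 aged and 40 adult UMIs in the lymphatic cells led by Ccl21a and Lyve1 (21 and 101 cells), but 5 and 12 UMIs in those led by Spp1 and Coch (43 and 89 cells), at 20.5 and 22.9 CPM. In blood endothelial-like cells C2 had 6 and 31 UMIs.

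C3 was abundant in most fibroblast-like cells, with a UMI in 94.4% of aged and 96.9% of adult cells at equal depth (92.3% and 94.8% unthinned), against 15.7% and 13.2% of blood endothelial-like cells (14.9% and 16.2%). Its class level was 2601 CPM in the aged and 2892 CPM in the adult library, a log2 ratio of -0.15 (-0.16 to -0.14). Clusters differed. In the cluster led by Myoc, Ccn5 and Cited1 C3 stood at 1809 against 4478 CPM (-1.31), in that led by Rxfp1 at 1154 against 2304 CPM, and in that led by Ifit1 and Ifit3 at 1950 against 3467 CPM (-0.83). In the cluster led by Rtl4 and Ano3 it stood at 3212 against 2731 CPM (0.23) and in that led by Cxcl2 and Il1r2 at 3708 against 3327 CPM (0.16). In all, 5 of the 12 clusters were lower and 0 higher, counts with no share of all genes computed. The cluster led by Acsbg1 had the least C3, 212 against 327 CPM.

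C3 in lymphatic endothelial-like cells stood at 40.1 CPM in the aged and 91.9 CPM in the adult library, from 18 and 133 UMIs, a ratio of -1.18 (-1.99 to -0.48). It stood at 22.6 against 106 CPM in the Ccl21a cluster and at 51.4 against 154 CPM in the cluster led by Ptprt, but at 41.1 against 32.5 CPM in the Spp1 cluster. With cells thinned to 3500 UMIs, which kept 71 aged and 210 adult cells, the lymphatic ratio of C3 was -0.55 (-1.51 to 0.30) and that of C2 was -1.03 (-2.45 to 0.11), so neither difference was detectable at that depth.

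In blood endothelial-like cells C3 stood at 80.9 CPM in the aged and 26.3 CPM in the adult library, a ratio of 1.58 (1.31 to 1.94), but 3 cells held most of the aged UMIs. Those 3 cells carried 159 of the 229 aged UMIs (69.4%), while the 3 highest adult cells carried 19 of 135 (14.1%). The 3 cells lay in the cluster led by Gja5, Sema3g and Gkn3 (41 aged and 64 adult cells), where C3 stood at 577 against 50.1 CPM. In the Olr1 and Cd300lg clusters C3 stood at 25.2 against 24.4 CPM and at 26.4 against 22.9 CPM. Serping1 stood at 373 against 111 CPM in this cluster, the one with more fibroblast marker RNA in the aged library (7.67% against 2.23%), whose part in the C3 value was not tested. In male blood endothelial-like cells the C3 ratio was -0.04 (-0.69 to 0.59) and in female cells 2.54 (2.12 to 3.09).

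C7, a component of the membrane attack complex, was found in a minority of fibroblast-like cells and differed strongly between male and female cells. It stood at 209 CPM in the aged and 265 CPM in the adult class, with a UMI in 29.8% and 28.8% of cells at equal depth (36.1% and 34.4% unthinned), against 0.602% and 0.265% of blood endothelial-like cells (0.465% and 0.606%). By cluster it ranged from 7.29 to 823 CPM in the aged and from 11.3 to 1129 CPM in the adult library. The clusters led by Cpz, Ifit1, Acsbg1 and Plcxd3 held the most, between 556 and 823 CPM in the aged library, and those led by Gabra2 and Rtl4 the least, at 7.65 and 7.29 CPM.

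Male fibroblast-like cells had 310 CPM of C7 in the aged library and female cells 48.4 CPM, a log2 ratio of male over female of 2.65 (2.60 to 2.76). In the adult library they had 492 and 59.0 CPM, a ratio of 3.04 (3.00 to 3.12). Of all measured genes 2.89% were higher in male cells by the same rule in the aged and 2.44% in the adult library, while 3.77% and 5.45% were lower. C7 was higher in male cells in 8 of 8 clusters of the aged and 7 of 7 clusters of the adult library with 50 or more cells of each sex. The share of all genes higher in male cells in every cluster was not computed, and the shares above are of the class. In the Trhde cluster male cells had 256 CPM and female cells 15.3 CPM in the aged library, and 700.2 and 7.20 CPM in the adult library. In the Miat cluster they had 176 and 7.77 CPM, and 269 and 12.4 CPM. In the Cxcl2 cluster of the adult library male cells had 305 UMIs and female cells 0, at least 55.9-fold higher in male cells against a floor of 3 counts of the female sum. The smallest ratio, 1.61 (0.01 to 4.73), was in the aged Rtl4 cluster, from 7 and 3 UMIs. That is under the 50 UMIs required of a measured member, a limit that these cluster counts did not apply. No other member was higher in male cells in every cluster by the rule. Serping1 came next, higher in male cells in 3 of 7 adult clusters and 0 of 8 aged clusters, with ratios above 0 in all of them. Masp1 had less in male cells of the class, with a ratio of -0.48 in the aged and -0.74 in the adult library, which passed the limit in the adult library alone, as had Cd55, with -0.17 and -0.31. The sex of a mouse and its other features cannot be told apart here, since each library is 1 pool and the number of mice of each sex was not given in the sources used here.

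Between ages, C7 in male fibroblast-like cells stood at 310 against 492 CPM, a ratio of -0.66 (-0.70 to -0.63), and in female cells at 48.4 against 59.0 CPM, a ratio of -0.28 (-0.38 to -0.19). The ratio of the whole class was -0.34 (-0.37 to -0.31), with male shares of 58.6% in the aged and 44.6% in the adult library. C7 in male cells was below 0 in 8 of 8 clusters and lower in 4, most in the Rtl4 (-1.56, 7 and 76 UMIs) and Trhde (-1.45, 1543 and 1926 UMIs) clusters. In female cells 5 of 9 clusters were below 0, 1 was lower (Ifit1, -1.01) and 3 were higher. The higher ones were Trhde, at 15.3 against 7.20 CPM (0.99), Myoc, with 12 against 1 UMI, and Cxcl2, with 6 against 0 UMIs. The difference between the sexes in these ratios was not tested. Over all cells the Acsbg1 cluster was the one with more C7 in the aged library past the limit, 603 against 378 CPM. Its called cells were 28 male and 26 female in the aged library, and 49 and 135 in the adult library. Male cells there stood at 1138 against 1068 CPM (0.09, -0.14 to 0.32), and female cells at 209 against 122 CPM (0.77, 0.23 to 1.29). The part of the sex mix in the value over all cells was not tested.

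**Figure D4:**
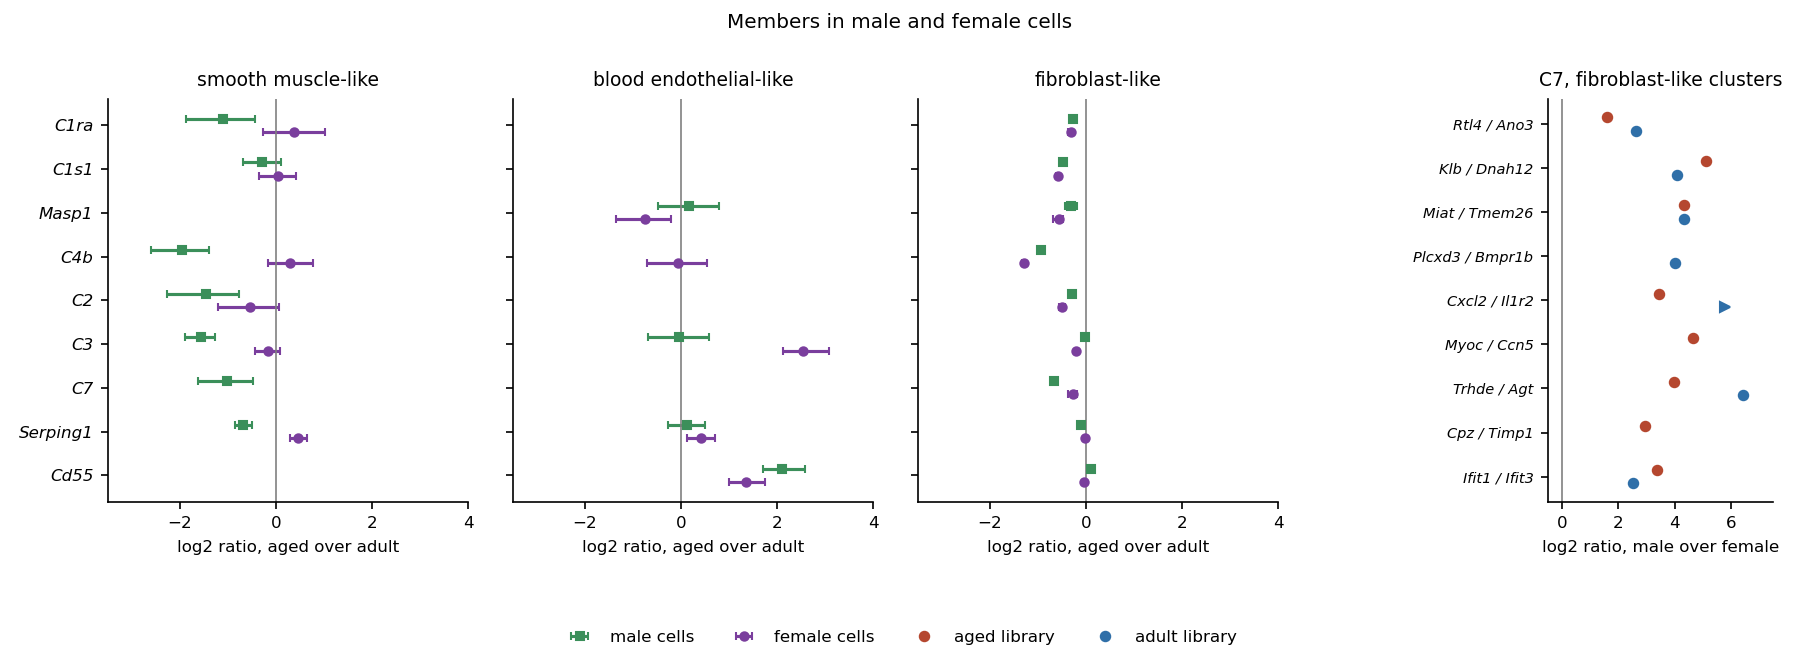
The 3 left panels give the log2 ratio of the aged over the adult level in male (squares) and female (circles) cells with exact 95% counting intervals, for members with 50 or more UMIs; the right panel gives the log2 ratio of male over female C7 level in each fibroblast-like cluster with 50 or more cells of each sex, a triangle being a lower bound. All points of the right panel lie right of 0, and in the smooth muscle-like panel the male points of C4b, C3 and Serping1 lie left of the female ones.

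Serping1, the C1 inhibitor, passed the limit in 0 of the fibroblast-like clusters. Its class levels there of 2621 CPM in the aged and 2658 CPM in the adult library gave a log2 ratio of -0.02 (-0.03 to -0.01). Over the 12 clusters its ratio ranged from -0.21 to 0.20. Elsewhere it was -0.16 in smooth muscle-like, 0.42 in blood endothelial-like and -0.48 in lymphatic endothelial-like cells, within the limit, but lower past it in male smooth muscle-like cells (-0.68) and female lymphatic endothelial-like cells (-0.67, -1.33 to -0.08). Its level ranged from 1432 CPM (Gabra2 cluster) to 4480 CPM (Cpz cluster) in the aged library and from 1626 CPM to 5184 CPM in the same clusters of the adult library. At equal depth 99.6% of aged and 99.9% of adult fibroblast-like cells had a UMI (99.2% and 99.2% unthinned), against 44.0% and 41.0% of blood endothelial-like cells (38.4% and 40.0%). It was the most abundant member in the other classes of the adult library, at 873 CPM in smooth muscle-like, 202 CPM in lymphatic endothelial-like and 94.1 CPM in blood endothelial-like cells, beside 783, 145 and 126 CPM in the aged library, where Cd55 in blood endothelial-like cells stood at 132 CPM. In the lymphatic clusters it stood at 260 against 276 CPM in the Ccl21a cluster, 180 against 220 CPM in the Ptprt cluster and 86.2 against 111 CPM in the Spp1 cluster.

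Cd55 was higher in aged than in adult blood endothelial-like cells and about level in fibroblast-like cells. In fibroblast-like cells it stood at 316 CPM in the aged and 317 CPM in the adult library, a ratio of -0.01 (-0.03 to 0.02). By cluster it was highest in Gabra2, at 846 against 873 CPM, and lowest in Ifit1 in the aged library (26.5 against 46.6 CPM) and in Acsbg1 in the adult library (39.6 against 29.1 CPM). It was higher in the aged Miat cluster, 452 against 220 CPM (1.04), and lower in the Ifit1 (-0.79) and Rxfp1 (-0.78) clusters. Male cells of the Miat cluster (164 aged and 213 adult) stood at 416 against 132 CPM of Cd55, and female cells (192 and 135) at 497 against 362 CPM. In blood endothelial-like cells Cd55 stood at 132 CPM in the aged and 42.7 CPM in the adult library, a ratio of 1.61 (1.39 to 1.88). Its UMIs were spread over many cells: 374 UMIs in 179 aged cells and 219 UMIs in 154 adult cells. With cells thinned to 3500 UMIs, 31.6% (27.0 to 36.4%) of aged and 12.3% (9.81 to 15.1%) of adult blood endothelial-like cells had a UMI, against 1.86% and 3.34% of smooth muscle-like cells. The unthinned shares were 41.6% and 23.3%, against 4.96% and 9.09%. The ratio was 2.10 (1.70 to 2.57) in male and 1.35 (1.01 to 1.74) in female cells.

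Most of these UMIs lay in the Prox1-positive cluster led by Olr1 and Vwf, at 176 against 60.0 CPM from 348 and 194 UMIs. The Gja5 cluster was also higher, at 59.8 against 19.6 CPM, from 17 and 9 UMIs, beside its fibroblast markers at 7.67% against 2.23%, whose part was not tested. The Cd300lg cluster had 15.9 against 11.1 CPM, from 9 and 16 UMIs. The removal of all cells with a marker UMI of another class took away most of the Olr1 cluster, because of Prox1, and left 122 aged and 271 adult cells with Cd55 at 27.0 against 22.6 CPM. In lymphatic endothelial-like cells Cd55 stood at 116 against 88.5 CPM, within the limit. Of these, the Spp1 cluster stood at 115 against 38.2 CPM, a ratio of 1.57 (0.71 to 2.50), from 28 and 20 UMIs in 43 and 89 cells. Cd55b, a close copy of Cd55, had 3.2 and 1.2 CPM in blood endothelial-like cells.

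C7 and C2 ran opposite to Cd55 over the fibroblast-like clusters. Over 30 points, each a cluster in 1 library with 50 or more cells, the Pearson correlation of log2(CPM + 1) was -0.89 between C2 and Cd55, -0.77 between C7 and Cd55 and 0.84 between C2 and C7. It was 0.94 between C1s1 and C1ra, and 0.89 between C4b and each of them. The points share 2 libraries and their cell calling, so these are descriptions and carry no test. The Gabra2 cluster had 846 CPM of Cd55, 7.65 CPM of C7 and 30.6 CPM of C2 in the aged library, and 873, 11.3 and 64.0 CPM in the adult library. The Cpz cluster had 31.6, 823 and 385 CPM in the aged library, and 41.8, 1129 and 475 CPM in the adult library. Called cells of Gabra2 were 245 female and 27 male in the aged library, and 481 and 30 in the adult library. Those of Cpz were 59 and 526, and 39 and 249. Male cells had 36.2 and 128 CPM of C7 in Gabra2 (aged, then adult) and 944 and 1371 CPM in Cpz. Female cells had 2.53 and 2.12 CPM in Gabra2 and 121 and 214 CPM in Cpz. Within single fibroblast-like cells at 7000 UMIs, a Cd55 UMI was found in 34.3% (32.0 to 36.6%) of the aged cells with a C7 UMI and 61.4% (59.8 to 62.9%) of those without. In the adult library the shares were 34.0% and 61.8%. The part of the sex mix in these correlations and shares was not tested.

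**Figure D5:**
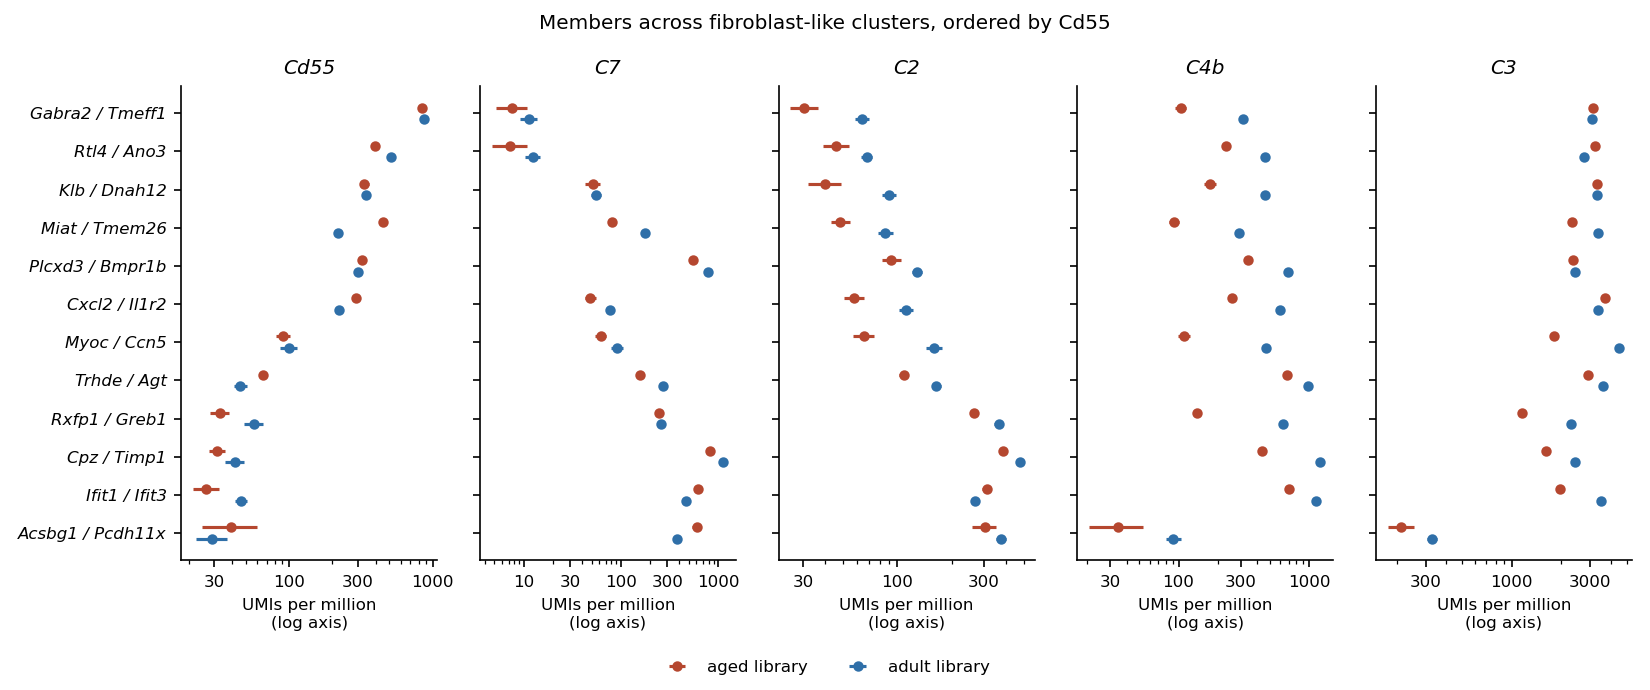
Level of Cd55, C7, C2, C4b and C3 in CPM (log axes) in the 12 fibroblast-like clusters with 50 or more cells per library, named by 2 leading genes and ordered by Cd55, with exact 95% Poisson bars; the aged point is drawn above the adult one. Clusters high in Cd55 such as Gabra2 (846 and 873 CPM) have little C7 (7.65 and 11.3 CPM), and the aged C4b point lies left of the adult one in each cluster.

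Smooth muscle-like cells showed lower C4b, C2, C3 and C7 in the aged library, with C3 and C7 concentrated in few cells. C3 stood at 365 CPM in the aged and 560 CPM in the adult library (-0.62), C4b at 84.5 and 176 CPM (-1.05), C2 at 46.9 and 83.9 CPM (-0.83) and C7 at 34.4 and 79.1 CPM (-1.18). Of the 583 aged C3 UMIs 474 (81.3%) lay in 10 of 242 cells, and of the 1414 adult UMIs 774 (54.7%) lay in 10 of 319 cells. Of the 55 aged C7 UMIs 51 lay in 3 cells. Serping1 and C1s1 were spread more widely, with 37.2% and 24.1% of the aged UMIs in the 10 highest cells. The 8 fibroblast markers stood at a median of 18.7% of their fibroblast-like level in the aged and 20.1% in the adult smooth muscle-like cells, where C3 stood at 14.0% and 19.3% of its own fibroblast-like level and C1s1 at 59.3% and 46.2%. In the 202 aged and 233 adult cells without a marker UMI of another class, C3 stood at 29.6 and 91.4 CPM and C7 at 0.871 and 33.4 CPM. In the same cells Serping1 stood at 544 and 487 CPM and C1s1 at 133 and 122 CPM. The summed fibroblast markers there were at 4.51% and 5.24% of the fibroblast-like level. At a finer cluster resolution 38 aged and 63 adult cells of this class formed a pericyte-like cluster by the fixed markers. It held 7 of the 583 aged and 227 of the 1414 adult C3 UMIs, and 23 of the 75 aged and 78 of the 212 adult C2 UMIs. The cells left as smooth muscle-like at that resolution had a C3 ratio of -0.40 (-0.54 to -0.26), within the limit. In the pericyte-like cluster C3 stood at 36.6 against 471.6 CPM, C2 at 120.3 against 162 CPM, C4b at 89.0 against 214 CPM and C1s1 at 219.8 against 214 CPM.

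By sex the smooth muscle-like values parted. Among members with 50 or more UMIs, male cells had 6 lower (C4b, C3, C2, C7, C1ra and Serping1) and female cells 0. The members measured differed between the sexes. In female cells C7 (2.12, 15 aged and 4 adult UMIs), Masp1 (2.63, 8 and 1) and Cd55 (-2.69, 4 and 40) were not counted. In male cells Masp1 (2 and 9 UMIs) and Cd55 (13 and 15) were not counted. Of all measured genes 9.66% were lower over the whole class. The share within each sex was not computed, so these counts have no background of their own. In male cells C4b stood at 45.7 against 179 CPM (-1.95), C3 at 167 against 496 CPM (-1.57) and Serping1 at 593 against 949 CPM (-0.68). In female cells C4b stood at 114 against 92.6 CPM (0.30, -0.17 to 0.76), C3 at 288 against 325 CPM (-0.18, -0.45 to 0.09) and Serping1 at 800.5 against 582 CPM (0.46, 0.28 to 0.64). The summed fibroblast markers moved the same way, at 4131 against 5616 CPM in male and 5815 against 3031 CPM in female cells. The interferon-inducible list was lower in both sexes, at 652 against 2272 CPM in male and 932 against 2141 CPM in female cells. The part of either list in these values was not tested, and neither was the difference between the sexes.

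Other complement genes came from a list of 48, of which 41 were found in both tables. In fibroblast-like cells 13 were measured, with a UMI in 10% or more of cells, and 1 was lower and 1 higher in the aged library. Csmd1, a membrane complement inhibitor, stood at 223 against 666 CPM (-1.57), and Vtn, which encodes vitronectin, an inhibitor of the membrane attack complex, at 39.0 against 23.7 CPM (0.70). All measured genes, without the limit on cells, were lower in 5.18% and higher in 2.01%. In smooth muscle-like cells 6 of 14 of the list were lower and 1 higher, beside 9.66% and 3.64% of all measured genes. The collectins Colec11 (18.8 against 87.8 CPM, -2.17) and Colec12 (-0.83), the alternative pathway protease Cfb (-1.45), Csmd1 (-0.96) and Vtn (-0.69) were among the lower genes, and Cd93 (0.72, 49 and 46 UMIs) was higher. In blood endothelial-like cells 0 of 8 and in lymphatic endothelial-like cells 0 of 8 passed the limit. Clu, which encodes the membrane attack complex inhibitor clusterin, was among the 2 highest of the list in both endothelial classes, at 798 against 546 CPM in blood and 356 against 413 CPM in lymphatic endothelial-like cells. The C1q genes stood at no more than 2.2 CPM in any class and library, and C5 (Hc) at no more than 0.6 CPM. The median log2 ratio of the measured list was -0.25 in fibroblast-like, -0.49 in smooth muscle-like, 0.17 in blood endothelial-like and -0.09 in lymphatic endothelial-like cells.

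For each member the genes with the most similar pattern were ranked over 42 points, each a cluster of any class in 1 library with 50 or more cells, among 6741 genes. C1ra was closest to its copy C1rb (0.99), then to Pdgfra and C1s1 (0.97 each). C1s1 was closest to Ntrk2, Prrx1 and Lrp1 (0.97 each), C4b to Ifi211 (0.90), C1s1 and Ms4a4d (0.89 each), and C2 to Abhd14a, Cd63 (0.88 each) and Igsf10 (0.87). C3 was closest to Ptges, Lrrc17 and Dnm1 (0.97 each), Serping1 to Abca8a, Entpd2 and Dcn (0.96 each), and C7 to Apod (0.94), Inmt (0.92) and Cyba (0.89). Cd55 was closest to Gm15675 (0.95), Dcbld2 (0.92) and Ackr3 (0.89), and Masp1 to Ntf3 (0.73), Cxcl14 (0.72) and Socs3 (0.70). These are Pearson correlations of log2(CPM + 1) over clusters that share 2 libraries, given as descriptions.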

How the data were processed

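Each age gave 1 library of sorted cells pooled from 6 mice. Per the submitters' processing notes Seurat 5.0.3 was used, and the builds GRCm39 and mm10 are named with no role; aligner and cell filters are not given. The values the authors deposited are on a natural log scale, ln of 1 plus a gene's UMIs scaled to 10000 per cell. UMIs were recovered by dividing each unlogged value by the lowest nonzero value of its cell, taken as 1 UMI. Of the results 100% came out whole within 0.01.

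The aged table has no gene names and took those of the adult table in row order. As a check, over the 6977 barcodes found in both tables gene levels correlated at 0.999, against 0.0599 with a shift of 1 row, and each member at 0.634 (C1ra) to 0.971 (C7). These barcodes had a median of 0.506 times their adult UMIs in the aged table and were kept as adult alone.

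The 14300 cells were clustered without complement genes (2000 variable genes, 30 principal components in numpy 2.4.6, 15 neighbours in scikit-learn 1.9.0, Leiden resolution 1 in igraph 0.11.9), giving 27 clusters. Clusters were named for the marker list with the best mean log2 fold, from 3 upward with 3 markers in 10% of cells, or as fibroblast-like with 3 fibroblast markers in 50% of cells. Those thresholds were set after the clusters were seen. A cluster of 10 aged epithelial-like cells was not compared. No doublet caller was run, and removing cells with a UMI of another class's marker was an alternative.

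UMIs were summed per class and library. Log2 ratios are aged over adult after adding 1 CPM, with exact conditional binomial intervals; levels have exact Poisson and shares Clopper-Pearson intervals (scipy 1.17.1), and floors are 3 counts. Cells were thinned to 7000 UMIs, or to 3500 as an alternative chosen after seeing the data. Thinning to 7000 left out 64 aged and 171 adult lymphatic endothelial-like, 176 and 183 smooth muscle-like, 264 and 282 blood endothelial-like, and 747 and 687 fibroblast-like cells. The ratio was tested on simulated data. The members and lists were chosen with earlier results of these data known. Named were all 9 members, pathway genes past 1.5-fold or among the 2 highest (1 of them is not reported here), and the 3 most similar genes per member.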

Additional observations from a re-analysis of the deposited data

Results flagged for a closer look

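C3 differed in direction between classes under the same contrast of ages. Its log2 ratio of aged over adult was -1.18 in lymphatic endothelial-like cells and -0.62 in smooth muscle-like cells, but 1.58 in blood endothelial-like cells, where 159 of the 229 aged UMIs lay in 3 cells. The difference between the classes was not tested, since each age has 1 library. The lymphatic ratio was -0.55 (-1.51 to 0.30) with cells thinned to 3500 UMIs. The smooth muscle-like ratio was -0.18 (-0.45 to 0.09) in female cells. The blood endothelial-like ratio was -0.0399 in male cells, and C3 stood at 25.2 against 24.4 CPM in the Olr1 cluster and 26.4 against 22.9 CPM in the Cd300lg cluster, so the higher value lay in the Gja5 cluster (41 aged and 64 adult cells).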

How the results depend on the processing

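No paired analysis was possible because each age has 1 library, and no replicate could be left out. Shares of all measured genes were computed for the main counts and from 2-fold alone, so the other counts below have no such background. The counts of members called were the same with 0.1 CPM added, with complement genes in the clustering and with scaling that leaves out the 50 most abundant genes. Smooth muscle-like cells had 3 lower at resolutions of 2 and 0.5, with C3 at -0.40 and -0.51, within the limit, and 5 lower by the mean over cells. Thinned to 7000 UMIs, lymphatic endothelial-like cells had 0 lower and 1 higher, with C2 at 0.027 from 19 aged cells, and smooth muscle-like cells 2 lower; at 3500 UMIs lymphatic endothelial-like cells had 0 lower. With clusters weighted equally, blood endothelial-like cells had 0 lower and 4 higher, with C4b at 0.0897, and fibroblast-like cells 2 lower. In female cells smooth muscle-like cells had 0 lower, with C4b at 0.30 and C7 at 2.12; the lower counts of both endothelial classes held but with other members, Masp1 (-0.75) for C4b (-0.07) in blood and Serping1 (-0.67) for C2 (-1.12, -2.66 to 0.09) in lymphatic endothelial-like cells. In male cells smooth muscle-like cells had 6 lower, lymphatic endothelial-like cells 1 lower, blood endothelial-like cells 0 lower and 1 higher, with C3 at -0.0399, and fibroblast-like cells 2 lower. Members under 50 UMIs were not counted. Among them were C2 in male lymphatic (-3.22, 1 and 32 UMIs) and C4b in male blood endothelial-like cells (-3.68, 1 and 45 UMIs). In female smooth muscle-like cells they were Cd55 (-2.69, 4 and 40 UMIs), C7 (15 and 4) and Masp1 (8 and 1). Without cells that carry markers of another class, blood endothelial-like cells had 0 lower and 1 higher, fibroblast-like cells 2 lower and smooth muscle-like cells 3 lower. Blood endothelial-like cells had 2 lower with no filter or by the mean over cells, 0 lower with 10 CPM added or from 2-fold, and 3 lower and 1 higher without clusters of under 50 cells, an alternative chosen after seeing the data. From 2-fold, smooth muscle-like cells had 2 lower. Another alternative kept the shared barcodes in the aged table, where their origin is not settled. The lower members were then 0 in lymphatic endothelial-like, 1 in smooth muscle-like, 0 in blood endothelial-like and 0 in fibroblast-like cells. The cause of the changes in this section was not tested. Depth limits lymphatic endothelial-like cells most, with 448878 aged UMIs.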
